A study of Mus musculus with 12 samples.

Results

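Slc15a2, Ubash3a, Slc1a5, Qprt, Abcb1b, Txnl4a, Pcbp2 and Atp6v1d are 8 of the 18193 genes measured on the array, and 20 of its 45037 tested probe sets name 1 of them alone. They were chosen by the difference between NOD and B6g7 mice in these same intensities, at least 1 probe set of each being lower in NOD in both T cell populations, so that difference is given for them as a description, with no test. A probe set is a group of short probes against 1 stretch of a transcript, summarised to 1 intensity, and each of these genes has 2 or 3. The probe set of a gene with the lowest difference between NOD and B6g7 is called its NOD-low probe set here. The label under which the genes were gathered says that their probe sets disagree, and for Atp6v1d that did not hold, since its 3 probe sets were all lower in NOD. By the RefSeq gene table the genes lie on 7 chromosomes: Abcb1b on chromosome 5, Slc1a5 and Qprt on 7, Atp6v1d on 12, Pcbp2 on 15, Slc15a2 on 16, Ubash3a on 17 and Txnl4a on 18.

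RNA was measured in CD4+CD25+ regulatory T cells, written Treg, and in CD4+CD25- conventional T cells, written Tconv, from the spleen of mice aged 6 weeks, with 3 arrays in each of 4 groups and RNA of 3 mice pooled for each array. NOD mice develop autoimmune diabetes. The comparison strain, B6.H2g7 and written B6g7 here, is B6 congenic for the Ag7 MHC class II of NOD, so both strains carry that haplotype. Magnetic enrichment came before 2 passes of sorting, which kept CD4+ cells negative for CD8a, CD11b, CD69 and B220, and for Treg those high in CD25. The labels give 94, 96 and 96 percent Foxp3+ cells for the B6g7 Treg samples and 89, 95 and 95 percent for the NOD Treg samples. The study asked how the change from Tconv to Treg differs between the strains.

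The genes belong to different pathways. Slc15a2 takes up di- and tripeptides with protons, Slc1a5 exchanges neutral amino acids such as glutamine, and Abcb1b is a P-glycoprotein that pumps drugs and other hydrophobic molecules out of cells. Ubash3a restrains signalling from the T cell receptor, and Qprt makes a precursor of NAD from quinolinic acid, a product of tryptophan breakdown. Txnl4a is a protein of the U5 particle of the spliceosome, Pcbp2 binds C-rich RNA, and Atp6v1d is a subunit of the proton pump that acidifies lysosomes. The intensity of a probe set depends on how well its probes pair with the transcript as well as on the RNA amount, so the level of a probe set is not read against that of another, and the difference between probe sets on an array is read only for how it moved between the strains.

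Array medians of intensity lay between 83.9 and 88.6, and arrays of a group correlated at 0.983 to 0.996. All 8 Treg markers were higher in Treg than in Tconv in both strains, among them Foxp3, the defining transcription factor of Treg, with mean log2 intensities in Tconv and Treg of 5.68 and 11 in B6g7 and of 5.91 and 11.05 in NOD. Between the strains, 3 of the 8 Treg markers, Ikzf2, Tnfrsf18 and Gpr83, were called higher in NOD Tconv by limma, and 0 were called in Treg. The summed Treg marker intensities in Tconv were 1806 to 2055 in B6g7 and 2675 to 3106 in NOD. Of 33 markers of B cells, myeloid cells, CD8 T and NK cells and erythroid cells, 0 were called between the strains in Tconv and 0 in Treg by limma, where 3.05% and 3.33% of all genes were called. Their summed intensities were 899 to 1088 for B cells, 1006 to 1234 for myeloid cells, 655 to 827 for CD8 T and NK cells and 555 to 639 for erythroid cells and platelets over the 12 arrays, while those of T cell markers were 15928 to 22632. Between Treg and Tconv 2 of the 33 were called, Cd79b and Gzmb, higher in Treg by 0.79 (limma adjusted p = 1.56e-05) and 0.54 (0.00199). In these bulk samples fewer cells of a type and less RNA per cell cannot be told apart.

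Both transporters of nutrients were low in NOD in 1 probe set. For Slc15a2, probe set 1417600_at read log2 intensities of 11.05, 11.42 and 11.21 in B6g7 Tconv and 11.77, 11.60 and 11.88 in B6g7 Treg, against 5.96, 5.89 and 6.01 in NOD Tconv and 5.90, 6.76 and 5.71 in NOD Treg. Every NOD array lay below every B6g7 array, and NOD Treg replicate 2 lay above the other NOD arrays. The difference of NOD minus B6g7 was -5.27 ± 0.21 (SE of the limma fit, n = 3 per group) in Tconv and -5.63 ± 0.21 in Treg on the log2 scale, which is 38.7-fold and 49.5-fold. Without NOD Treg replicate 2 the Treg difference was -5.95. The NOD levels lay near the median probe set mean of 6.43, and the values carry no detection calls, so whether they are above background is not known. The NOD minus B6g7 difference of this probe set, averaged over both populations, ranked 4 from the lowest among 45037 probe sets.

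The other Slc15a2 probe sets did not share the fall. Probe set 1424730_a_at read between 6.54 and 7.14 over all 12 arrays and 1447808_s_at between 5.88 and 6.41, with the strains overlapping in both populations. Their NOD minus B6g7 differences were 0.02 and 0.10 in Tconv and Treg for the first and -0.05 and 0.01 for the second. Both have mean intensities near the middle of all probe sets, at percentiles 57.5 and 44.2, and whether they are above background is not known either.

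For Slc1a5, probe set 1416629_at read 9.21, 8.96 and 9.02 in B6g7 Tconv and 9.35, 9.07 and 9.40 in B6g7 Treg, against 6.88, 7.45 and 7.69 in NOD Tconv and 7.56, 7.23 and 7.69 in NOD Treg. No NOD array reached a B6g7 array, and the difference was -1.72 ± 0.19 in Tconv (3.30-fold) and -1.78 ± 0.19 in Treg (3.43-fold). Probe set 1440379_at of the same gene went the other way: it read 6.99, 6.94 and 6.64 in B6g7 Tconv and 7.78, 7.34 and 7.21 in NOD Tconv, and 7.24, 7.05 and 7.04 in B6g7 Treg and 7.58, 7.53 and 7.32 in NOD Treg. There the NOD arrays lay above the B6g7 arrays in both populations, by 0.59 ± 0.15 in Tconv and 0.36 ± 0.15 in Treg.

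**Figure D1:**
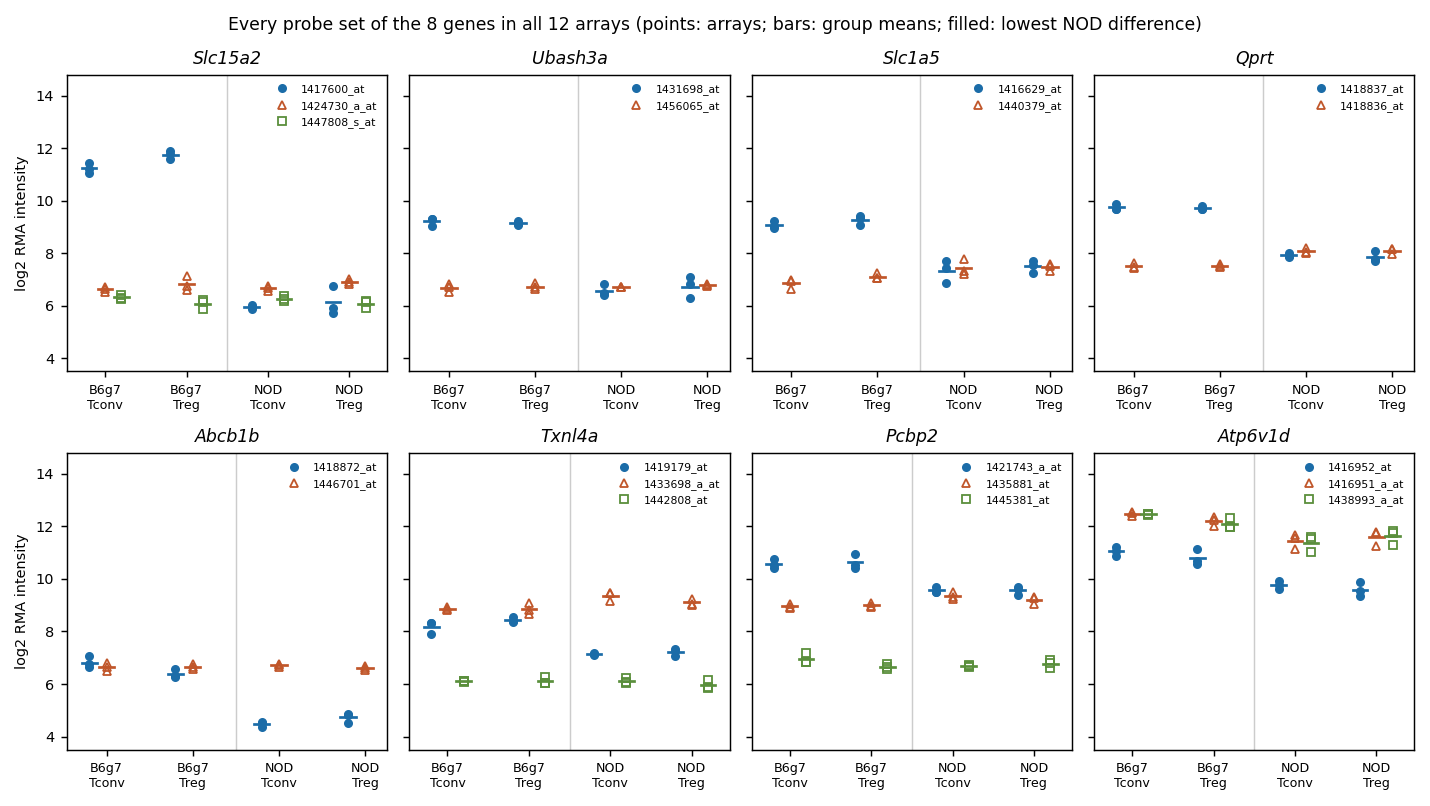
Log2 intensity of every probe set of the 8 genes on each of the 12 arrays, by strain and population, each point 1 array of RNA pooled from 3 mice. The NOD-low probe set of every gene is lower in all NOD arrays in both populations, while of the other 12 probe sets only those of Atp6v1d are lower in every NOD array of both.

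Ubash3a, the restrainer of T cell receptor signals, had 2 probe sets. Probe set 1431698_at read 9.30, 9.31 and 9.04 in B6g7 Tconv and 9.22, 9.11 and 9.06 in B6g7 Treg, against 6.81, 6.39 and 6.49 in NOD Tconv and 6.30, 6.81 and 7.08 in NOD Treg. The groups of the strains did not overlap, and the difference was -2.65 ± 0.17 in Tconv (6.30-fold) and -2.40 ± 0.17 in Treg (5.28-fold). The other probe set, 1456065_at, stayed within 6.53 to 6.85 on all 12 arrays, a range of 0.32, and its differences were 0.04 and 0.06. Its mean lay at percentile 56.8 of all probe sets, and whether it is above background is not known.

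Qprt, the enzyme of NAD synthesis, had a probe set that was low and another that was high in NOD. Probe set 1418837_at read 9.88, 9.67 and 9.67 in B6g7 Tconv and 9.68, 9.78 and 9.70 in B6g7 Treg, against 7.85, 7.89 and 8.02 in NOD Tconv and 7.72, 7.78 and 8.07 in NOD Treg. Probe set 1418836_at read 7.64, 7.46 and 7.44 in B6g7 Tconv and 7.59, 7.48 and 7.5 in B6g7 Treg, against 8.02, 8.05 and 8.21 in NOD Tconv and 7.98, 8.15 and 8.14 in NOD Treg. The strains did not overlap in either, in opposite directions. The first differed by -1.82 ± 0.11 in Tconv (3.53-fold) and -1.86 ± 0.11 in Treg (3.64-fold), the second by 0.58 ± 0.09 and 0.57 ± 0.09. The platform annotation lists the same database sequence for both.

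Abcb1b, the P-glycoprotein, was low in NOD by probe set 1418872_at, which read 7.05, 6.75 and 6.65 in B6g7 Tconv and 6.29, 6.59 and 6.28 in B6g7 Treg, against 4.55, 4.37 and 4.52 in NOD Tconv and 4.53, 4.81 and 4.86 in NOD Treg. The strains did not overlap, and the differences were -2.33 ± 0.13 in Tconv and -1.66 ± 0.13 in Treg. The NOD arrays lay under 5.28, the 25th percentile of all probe set means, where the size of a fold is uncertain: with 16 added to each intensity before log2, the differences were -1.75 and -1.23. Probe set 1446701_at stayed within 6.49 to 6.80 on all 12 arrays, with differences of 0.06 and -0.05. Its mean lay at percentile 55.1 of all probe sets, and whether it is above background is not known.

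Txnl4a, the spliceosome protein, had 3 probe sets with different patterns. Its probe set 1419179_at read 8.31, 8.31 and 7.91 in B6g7 Tconv and 8.55, 8.40 and 8.37 in B6g7 Treg, against 7.11, 7.16 and 7.18 in NOD Tconv and 7.07, 7.35 and 7.26 in NOD Treg. The strains did not overlap, with differences of -1.03 ± 0.12 (2.04-fold) and -1.21 ± 0.12 (2.32-fold). Probe set 1433698_a_at was higher in every NOD array in Tconv, by 0.49 ± 0.13, and overlapped in Treg at 0.24 ± 0.13. Probe set 1442808_at stayed within 5.86 to 6.27.

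For Pcbp2, probe set 1421743_a_at read 10.77, 10.53 and 10.43 in B6g7 Tconv and 10.42, 10.52 and 10.94 in B6g7 Treg, against 9.50, 9.52 and 9.70 in NOD Tconv and 9.38, 9.60 and 9.70 in NOD Treg. All NOD arrays were below all B6g7 arrays, and the differences were -1 ± 0.14 (2-fold) and -1.07 ± 0.14 (2.10-fold). Probe set 1435881_at was higher in every NOD array in Tconv, by 0.39 ± 0.10, and by 0.22 ± 0.10 in Treg, where 1 NOD array at 9.05 lay below a B6g7 array at 9.07. Probe set 1445381_at ranged from 6.57 to 7.18, was lower in every NOD array in Tconv, at -0.27, and overlapped in Treg, at 0.12.

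Atp6v1d, the proton pump subunit, was lower in NOD in all 3 probe sets. Probe set 1416952_at read 11.08, 11.23 and 10.86 in B6g7 Tconv and 11.13, 10.68 and 10.55 in B6g7 Treg, against 9.93, 9.78 and 9.61 in NOD Tconv and 9.87, 9.34 and 9.55 in NOD Treg. Probe set 1416951_a_at read 12.41, 12.50 and 12.53 in B6g7 Tconv and 12.03, 12.24 and 12.35 in B6g7 Treg, against 11.14, 11.54 and 11.66 in NOD Tconv and 11.26, 11.75 and 11.77 in NOD Treg. The strains did not overlap in either. The differences were -1.28 ± 0.17 (2.44-fold) and -1.20 ± 0.17 (2.30-fold) for the first and -1.03 ± 0.16 and -0.62 ± 0.16 for the second, and these 2 probe sets list the same database sequence. The third, 1438993_a_at, read 12.46, 12.46 and 12.44 in B6g7 Tconv and 11.96, 12.32 and 11.97 in B6g7 Treg, against 11.03, 11.52 and 11.59 in NOD Tconv and 11.28, 11.83 and 11.76 in NOD Treg. It was also lower in every NOD array of each population, by -1.07 ± 0.17 in Tconv and -0.46 ± 0.17 in Treg.

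The replicate 1 arrays of both NOD groups and of B6g7 Treg were the highest of their group in 1416952_at of Atp6v1d and the lowest in 1416951_a_at, and in 1438993_a_at as well. For actin, the control probe set at the 3' end minus that at the 5' end, a sign of RNA length, was lowest on those arrays, at 2.97 in NOD Tconv, 3.29 in NOD Treg and 2.66 in B6g7 Treg, against 3.79 to 4.70 on the other arrays of these groups. With this actin value as a covariate, the NOD minus B6g7 differences in Tconv and Treg were -1.38 and -1.10 for 1416952_at, -0.95 and -0.70 for 1416951_a_at, and -1 and -0.53 for 1438993_a_at. Its part in the pattern was not tested further.

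Counted over all 20 probe sets, 10 were lower in NOD in every array of both populations, 2 were higher in every array and 8 overlapped in at least 1 population. The 10 are the 8 NOD-low probe sets, which were chosen so, and the other 2 of Atp6v1d; over all probe sets 2.43% were lower and 2.73% higher in every NOD array of both populations. By limma calls, 1.12% of all probe sets were lower and 0.848% higher in NOD in both. The median NOD minus B6g7 difference over the 20 was -0.63 in Tconv and -0.31 in Treg, beside 0.02 and 0.00 over all probe sets. Those over the 8 NOD-low probe sets were -1.77 and -1.72.

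**Figure D2:**
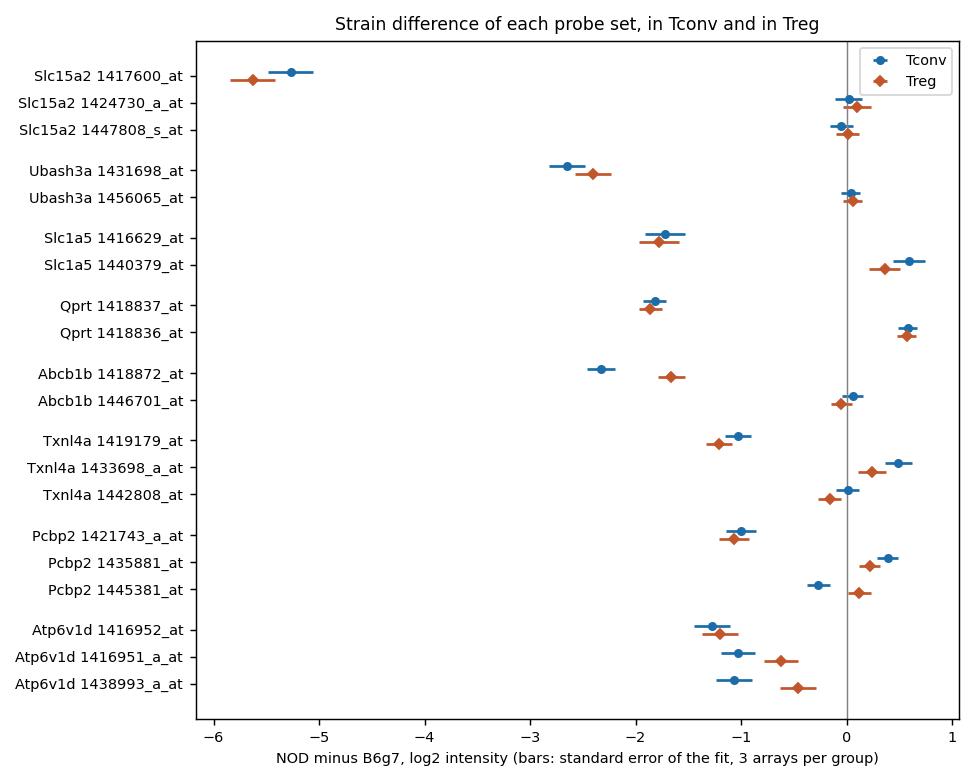
NOD minus B6g7 difference in log2 intensity for each of the 20 probe sets, in Tconv and in Treg, with the standard error of the limma fit (n = 3 arrays per group). The NOD-low probe sets run from -1 for Pcbp2 to -5.63 for Slc15a2. Another probe set of each of Slc1a5, Qprt, Txnl4a and Pcbp2 lies above 0 by more than its standard error in both populations.

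Within an array, the difference between the NOD-low probe set and the brightest other probe set of the same gene moved between the strains. It lay between 4.39 and 5.04 for Slc15a2 on the B6g7 arrays and between -1.32 and -0.08 on the NOD arrays, and no array of 1 strain reached the other. For Ubash3a it went from 2.23 to 2.78 in B6g7 and from -0.47 to 0.32 in NOD, and for Qprt from 2.09 to 2.30 and from -0.37 to -0.07. The B6g7 and NOD arrays were apart in 7 of the 8 genes. In Atp6v1d they overlapped, at -1.79 to -0.90 in B6g7 and -2.41 to -1.21 in NOD.

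The shift of that within-array difference, averaged over both populations, was -5.51 for Slc15a2, -2.58 for Ubash3a, -2.41 for Qprt, -2.23 for Slc1a5, -2 for Abcb1b, -1.49 for Txnl4a, -1.34 for Pcbp2 and -0.42 for Atp6v1d. The genes were chosen by these values, so the shift is a description only. It does not show which probe set followed the amount of RNA, and sequence differences of NOD under the probes were not analysed here.

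**Figure D3:**
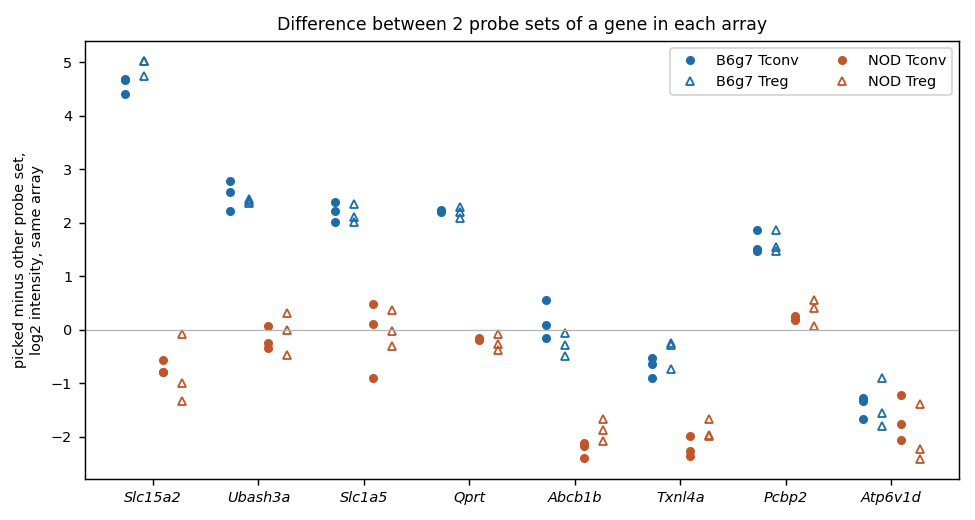
Difference in log2 intensity between the NOD-low probe set and the brightest other probe set of the same gene on each array, by strain and population. The B6g7 and NOD arrays are apart for 7 genes and overlap for Atp6v1d.

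Treg and Tconv were compared next, a contrast that played no part in the choice of genes when averaged over the strains. None of the 20 probe sets was called by limma at an adjusted p under 0.05, where 5.84% of all 45037 probe sets were called. At an unadjusted p under 0.05 there were 3 of 20, all of Slc15a2, beside 14.1% of all probe sets; with array weights 1 was called, and with the replicate block 0. The changes ran from -0.23 to 0.35 with a median of -0.04, beside -0.01 over all probe sets, and their median size was 0.08, beside 0.07.

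Slc15a2 had the largest of these changes. Its probe set 1417600_at was 0.35 higher in Treg (95% interval 0.02 to 0.67, limma adjusted p = 0.305), 1424730_a_at was 0.22 higher (0.02 to 0.41, adjusted p = 0.286) and 1447808_s_at was 0.22 lower, at -0.22 (-0.39 to -0.05, adjusted p = 0.171). The probe sets thus differed in sign here too, and none passed the test. Atp6v1d 1416952_at was at -0.23 (-0.49 to 0.04, adjusted p = 0.466). With array weights its value was -0.31 and the adjusted p 0.0405, the only call of a member in the averaged contrast under any setting tried.

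For the NOD-low probe sets of the other 6 genes the interval of the Treg minus Tconv change bounds what the arrays leave possible. It was -0.22 to 0.31 for Ubash3a, -0.10 to 0.47 for Slc1a5, -0.20 to 0.13 for Qprt, -0.29 to 0.11 for Abcb1b, -0.01 to 0.35 for Txnl4a and -0.20 to 0.24 for Pcbp2. Their adjusted p-values by limma lay between 0.411 for Txnl4a and 0.977 for Pcbp2. These intervals do not bound the change within a strain. For Abcb1b the interval was -0.71 to -0.14 within B6g7 and -0.04 to 0.53 within NOD. Those 2 changes differed in sign, and neither was called.

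Within B6g7, 0 of the 20 probe sets were called between Treg and Tconv, where 3.37% of all were, and within NOD 0 of 20, where 3.20% were. With the replicate block the calls over all probe sets in NOD numbered 2362, against 1443 without it, and those of the 20 stayed at 0. At an unadjusted p under 0.05 there were 5 of 20 in B6g7 and 0 in NOD, beside 11.7% and 10.8% of all. The arrays of Treg and Tconv did not overlap for 8 of 20 in B6g7, beside 15.1% of all probe sets, and for 3 of 20 in NOD, beside 17% of all. In B6g7 the largest change was that of Slc15a2 1417600_at, 0.53 ± 0.21 (limma adjusted p = 0.329), which passed at 0.0291 without NOD Treg replicate 2. In NOD it was 0.17 (adjusted p = 0.915), and -0.15 without NOD Treg replicate 2 (0.989). Atp6v1d 1416952_at was called in B6g7 with array weights, at -0.45 (0.0369), and with the actin value as a covariate, at -0.31 (0.0422), while 0 of the 20 were called in NOD under any setting tried.

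The difference between the strains in that change is a difference of the contrasts that chose the genes, and is given without a test. It was 0.67 ± 0.19 for Abcb1b 1418872_at, whose Treg minus Tconv change was -0.42 ± 0.13 in B6g7 (adjusted p = 0.139) and 0.25 ± 0.13 in NOD (0.583), both by limma. It was 0.61 ± 0.24 for 1438993_a_at and 0.41 ± 0.22 for 1416951_a_at of Atp6v1d, 0.39 ± 0.16 for 1445381_at of Pcbp2 and -0.36 ± 0.30 for 1417600_at of Slc15a2. Over the 8 NOD-low probe sets the median was -0.05.

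**Figure D4:**
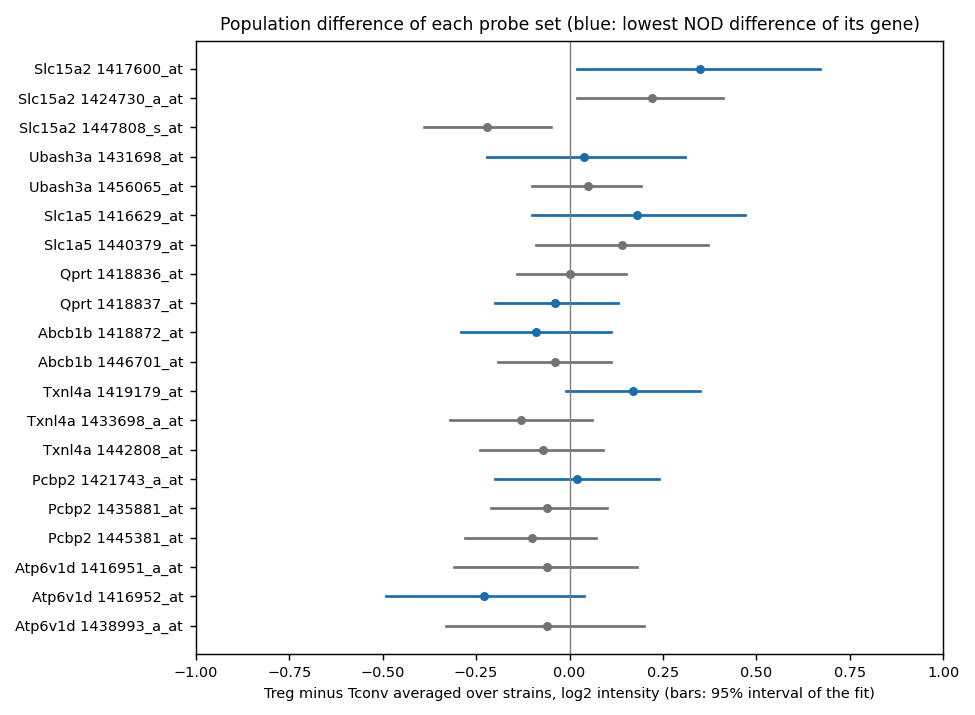
Treg minus Tconv change in log2 intensity of the 20 probe sets, averaged over the strains, with the 95% interval of the limma fit (n = 3 arrays per group). The changes run from -0.23 for Atp6v1d to 0.35 for Slc15a2, and none passed the adjusted threshold of 0.05.

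The genes next to each of the 8 on the chromosome were read for the same strain difference, as the 3 nearest measured genes on each side, 48 in all, each by its brightest probe set. Of these, 2 were called lower in NOD in both populations by limma, where 0.896% of all genes were; 0 were called higher in both, where 0.973% were. Both lie near Abcb1b. Rundc3b, by its only probe set 1434456_at, read 9.12, 9.29 and 9.14 in B6g7 Tconv and 8.42, 8.75 and 8.41 in B6g7 Treg, against 6.56, 6.94 and 7.09 in NOD Tconv and 6.67, 6.83 and 7.04 in NOD Treg. It differed by -2.32 ± 0.15 in Tconv (adjusted p = 9.92e-07) and -1.69 ± 0.15 in Treg (1.84e-05), and no array of NOD reached B6g7. It also fell from Tconv to Treg in B6g7, by 0.65 (adjusted p = 0.0282), a call lost without any of the 3 B6g7 Tconv arrays, B6g7 Treg replicate 1 or B6g7 Treg replicate 3, with adjusted p up to 0.127.

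Slc25a40, a mitochondrial carrier gene, was the other, at -0.72 (limma adjusted p = 0.00846) in Tconv and -0.61 (0.0237) in Treg. The Tconv call was lost without B6g7 Tconv replicate 2, at 0.0521. The Treg call was lost without B6g7 Treg replicate 1 or 2 or NOD Treg replicate 2 or 3, at up to 0.115.

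Abcb1a, the close paralog of Abcb1b, lies between Rundc3b and Abcb1b. Its probe set 1419759_at differed by 0.05 in Tconv (limma adjusted p = 0.959) and by -0.67 ± 0.17 in Treg (0.0469). The Treg call held in only 2 of 12 fits that left out 1 array, those without NOD Tconv replicate 2 or NOD Treg replicate 3, and reached an adjusted p of 0.173 in the others. The other Abcb1a probe set, 1419758_at, differed by 0.05 in Tconv (limma adjusted p = 0.931) and by -0.24 in Treg (0.352). Abcb4, on the other side of Abcb1b, differed by 0.15 and 0.07. Abcb1a was higher in Treg than in Tconv averaged over the strains, by 0.95 (adjusted p = 1.95e-04) and by 0.76 in its other probe set (1.04e-05), while Abcb1b 1418872_at was at -0.09 (0.815).

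Beside the other 7 genes, 3 neighbours were called between the strains, each in 1 population. Map3k12, a kinase next to Pcbp2, was lower in NOD Tconv by its brightest probe set, at -0.46 (limma adjusted p = 0.0190), and -0.07 in Treg. Its Tconv call was lost without B6g7 Tconv replicate 1 or 2 or NOD Tconv replicate 1 or 2, with adjusted p up to 0.0993. Its probe set 1438908_at was higher in NOD, by 0.94 (0.00422) and 0.78 (0.0154). Tmem229b, near Atp6v1d, was higher in NOD Tconv, at 0.64 (0.0348), and 0.28 in Treg. The Tconv call was lost in 6 of 12 fits without 1 array, with adjusted p up to 0.154. Those were the fits without B6g7 Tconv replicate 2 or 3, any NOD Tconv array or NOD Treg replicate 3. Its other probe sets were at 0.33 (0.250) and 0.10 (0.789) in Tconv. Cd86, the costimulatory ligand near Slc15a2, was at -0.46 in Tconv (0.0593) and 0.65 in Treg (0.00687). Its other probe set, 1449858_at, was at -0.09 (0.929) and -0.02 (0.994). No neighbour of Ubash3a, Slc1a5, Qprt or Txnl4a was called.

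**Figure D5:**
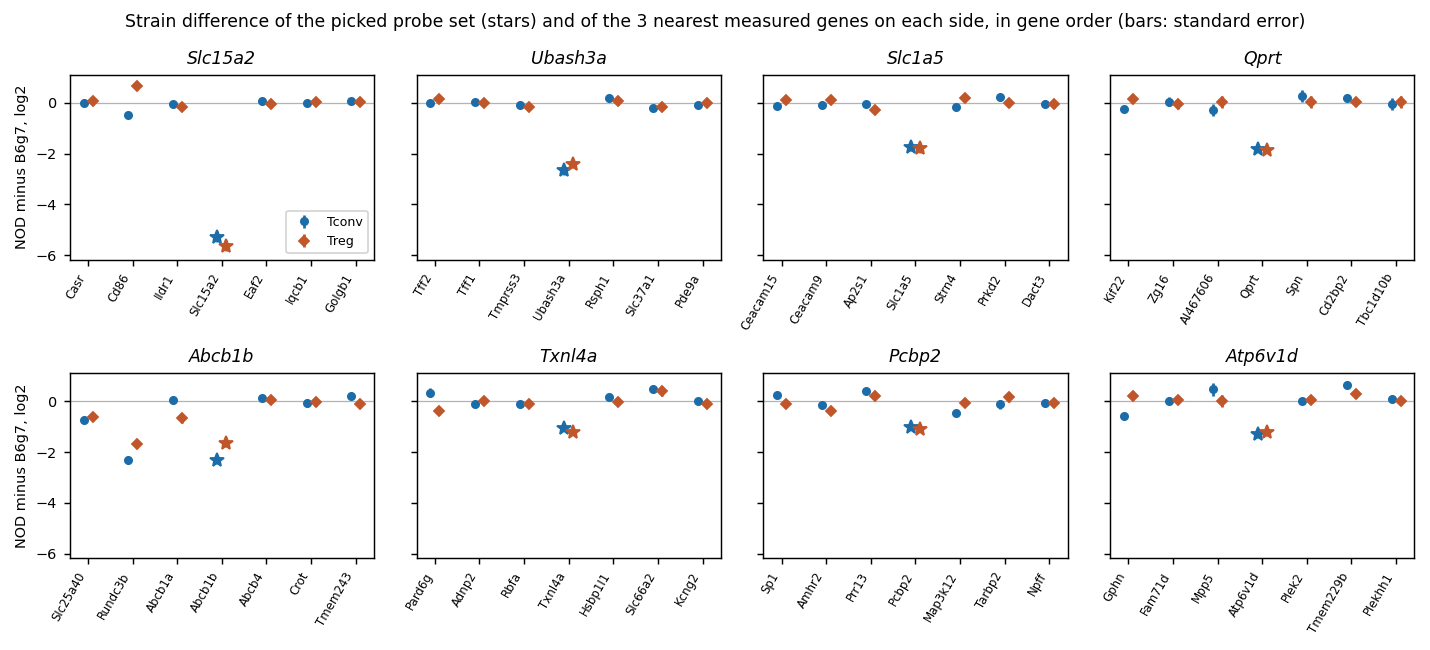
NOD minus B6g7 difference in log2 intensity of each of the 8 genes' NOD-low probe set and of the 3 nearest measured genes on each side, in gene order, with the 8 genes marked, in Tconv and in Treg. Only the stretch at Abcb1b holds neighbours called lower in both populations, Rundc3b and Slc25a40.

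Genes of the same pathways were compared by their brightest probe sets, in 7 lists. Between Treg and Tconv, 0 to 3 genes of a list were called, the most being 3 of 22 ABC transporters and 2 of 19 poly(C)-binding proteins and hnRNPs. Of 25 peptide and amino acid transporters, 0 were called between the strains in either population. Between Treg and Tconv, where 7.5% of all genes were called, Slc36a1 was the only one, at -0.38 (limma adjusted p = 0.0351), and it was lost in 8 of 12 fits without 1 array, with adjusted p up to 0.0957. Over the 7 lists, medians of the NOD minus B6g7 difference ran from 0.01 to 0.15 in Tconv and from -0.06 to 0.09 in Treg, beside 0.03 and 0 over all genes, and those of Treg minus Tconv from -0.10 to 0.02, beside -0.01. The relatives of Slc15a2 in the list, Slc15a1, Slc15a3 and Slc15a4, differed between the strains by 0.00, -0.01 and 0.22 in Tconv. In Treg they differed by 0.17, 0.15 and 0.26. Slc15a1 and Slc15a3 had mean intensities of 4.49 and 4.57, under the 25th percentile of 5.28, so a difference may not be measurable there. Slc1a4, the relative of Slc1a5, differed by 0.12 in Tconv and 0.04 in Treg.

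Among 22 measured genes of T cell receptor signalling and its restraint, Pag1, an adaptor that recruits the inhibitory kinase Csk, was lower in Treg, at -0.60 (limma adjusted p = 0.00227), and its other probe sets were at -0.43 (0.0359), -0.14 (0.563) and -0.02 (0.962). Dok1 was higher at 0.32 (0.0326), which was lost in 8 of 12 fits without 1 array, with adjusted p up to 0.0946. Between the strains 0 were called in Tconv and 1 in Treg: Ubash3b, the paralog of Ubash3a, was lower in NOD Treg by -0.95 ± 0.12 (5.86e-04) and at -0.42 in Tconv (0.129). Its other probe sets, 1429475_at and 1436805_at, were at -0.58 (0.558) and -0.48 (0.0935) in Treg.

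Of 17 measured genes of NAD synthesis, Nmnat3, an enzyme of the last step, was lower in NOD by its brightest probe set, at -0.74 in Tconv (limma adjusted p = 6.15e-04) and -0.73 in Treg (6.17e-04). Its other probe set, 1432342_at, was at -0.01 and -0.05. Nmrk1 was higher in NOD Treg, at 0.82 (0.0178), and was lost in 4 of 12 fits without 1 array, with adjusted p up to 0.0779. Its other probe sets were at -0.16 (0.903) and -0.25 (0.564) in Treg and at -0.55 (0.0993) and -0.45 (0.110) in Tconv, where the first was at 0.62 (0.0907). Between Treg and Tconv 0 were called.

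Of 22 measured ABC transporters, Abcb1a and Abcc1 were higher in Treg, the latter by 0.31 (limma adjusted p = 0.0256), and Abcb11 lower, at -0.26 (0.0391). The calls of Abcc1 and Abcb11 were lost in 8 and 10 of 12 fits without 1 array, with adjusted p up to 0.0697 and 0.106. The other Abcc1 probe set was at -0.03 (0.934). Between the strains 0 were called in Tconv and 1, Abcb1a, in Treg.

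In 18 measured genes of the U5 and tri-snRNP particles, Usp39 was lower in NOD in both of its probe sets, 1437007_x_at at -1.42 (limma adjusted p = 0.00253) in Tconv and -1.01 (0.0254) in Treg, and 1460209_at at -0.51 (0.00846) and -0.59 (0.00303). The Treg call of the first was lost without B6g7 Treg replicate 2 or NOD Treg replicate 1 or 3, with adjusted p up to 0.134. Txnl4b, the relative of Txnl4a, differed by 0.21 (0.323) and 0.03 (0.982). Between Treg and Tconv 0 of the 18 were called.

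Of 19 poly(C)-binding proteins and hnRNPs, Hnrnpll, a splicing regulator of CD45, was higher in Treg by 0.51 (limma adjusted p = 0.00345), and by 0.67 (0.00103) in its other probe set, and Pcbp4 by 0.47 (0.0117). The other probe sets of Pcbp4 gave 0.02 (0.964) and 0.13 (0.555). Between the strains 0 of 19 were called in either population. Pcbp1 and Pcbp3, the nearest relatives of Pcbp2, were at 0.17 and -0.09 in Tconv and at -0.24 and 0.13 in Treg. The other Pcbp3 probe set, 1437722_x_at, was at -0.15 (0.812) in Tconv and 0.45 (0.132) in Treg. Of 22 measured V-ATPase subunits, Atp6v0a2 was lower in Treg, at -0.51 (0.00679), with its other probe sets at -0.41 (0.0408) and -0.31 (0.176). Atp6v0e2 was higher in NOD Treg, at 0.71 (0.00222), and 0 were called between the strains in Tconv and 0 were called lower in NOD Treg.

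The probe sets of other genes whose values over the 12 arrays were most like the mean standardized profile of the 8 NOD-low probe sets belonged to Zfp874a, Ssbp2, Trim12c, Trim30a and Rcn2, with Pearson correlations of 0.996, 0.996, 0.996, 0.996 and 0.994 over 12 arrays. The members' own correlations with that profile ran from 0.936 for Atp6v1d to 0.996 for Qprt. These correlations reflect the split of the 12 arrays by strain and are a description. Ssbp2 1429951_at was at -5.44 in Tconv and -5.72 in Treg, and its probe set 1451542_at at 1.91 and 2.35. Trim30a, an interferon-induced gene, was at -3.06 and -2.93 by 1417961_a_at and at -0.11 and -0.40 by its other probe set.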

How the data were processed

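The deposited values are linear intensities, 1 for each probe set on each array, which the authors normalized with RMA per the labels and the series text; the RMA software is not given in the sources used here. Log2 was taken here with no pseudocount or further normalization. Of 45101 probe sets, 64 controls were left out and 45037 tested; 34945 name 1 gene, 932 several and 9160 none in the platform annotation. By gene ID, 34741 of them matched the RefSeq table of GRCm38.p6, used for names and gene order. No probe sequences were used.

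All 12 arrays entered 1 model of group means in limma 3.58.1 (R 4.3.3), followed by eBayes; p-values were adjusted by Benjamini-Hochberg over all tested probe sets and called at an adjusted p under 0.05. Genes other than the 8 are represented by their brightest probe set. No exact permutation test was run, as 3 arrays against 3 allow no p below 0.1. Each array holds RNA pooled from 3 mice per the labels, and the number of arrays, 3 a group, limits the precision. The replicate numbers were checked for pairing by correlating deviations from group means. Same-numbered arrays deviated together in all 3 pairs of NOD Tconv with NOD Treg (0.315 to 0.564), B6g7 Treg with NOD Treg (0.302 to 0.671) and B6g7 Treg with NOD Tconv (0.279 to 0.551). The replicate 1 arrays of these groups also had the lowest actin difference of their group. Whether the numbers mark pairs or a shared RNA quality was not tested, and the reported model uses no pairing. They did not in all pairs with B6g7 Tconv, at -0.08 to 0.521 with B6g7 Treg, -0.041 to 0.436 with NOD Tconv and -0.21 to 0.345 with NOD Treg.

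The 8 genes, the pathway and marker lists and the tests were chosen with earlier results of these data known. Named were all probe sets of the 8 genes, their paralogs, neighbours called between the strains, the 5 most alike probe sets, and of each list the genes called between the strains in both populations or among the 3 of smallest p; those that passed no test are mostly left out for brevity. Other listed genes called between the strains in 1 population and other probe sets were named after their values were seen.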

Additional observations from a re-analysis of the deposited data

Results flagged for a closer look

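Cd86, which lies near Slc15a2, changed more from Tconv to Treg in NOD than in B6g7 by probe set 1420404_at: the test of the difference itself gave 1.11 ± 0.17 on the log2 scale (limma adjusted p = 0.0251), a contrast in which 0.0933% of all probe sets were called. The Treg minus Tconv change was 0.83 in B6g7 and 1.95 in NOD. Of 12 fits that left out 1 array, 2 passed, those without B6g7 Treg replicate 1 (0.0169) or NOD Treg replicate 2 (0.0272), with values of 1.02 to 1.20 and adjusted p up to 0.115. Without the 4 arrays of replicate number 1 the adjusted p was 0.144. The other settings, which kept all 12 arrays, all passed. Their adjusted p ran from 0.00141 with array weights to 0.0363 without the probe sets under the 25th percentile of means. The other Cd86 probe set, 1449858_at, gave 0.07 (adjusted p = 0.980).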

How the results depend on the processing

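Every NOD-low probe set stayed lower in NOD in all 336 values over the settings tried, the closest to 0 at -0.87, and no called result reversed. These probe sets were chosen by this difference in the same arrays, so their steady sign is a description and no test. The replicate block, a term for the replicate numbers, moved the called probe sets for Treg against Tconv to 2286 in B6g7 (from 1519) and 2362 in NOD (from 1443). For NOD against B6g7 in Tconv it moved them to 2124 (from 1333), and it changed no call of the 8 genes. Array weights gave 4796 averaged over strains (from 2632), 3460 in B6g7, and 2181 and 2361 between the strains in Tconv and Treg, with 1 probe set of the 8 genes called averaged and 1 in B6g7, both Atp6v1d 1416952_at (-0.31, limma adjusted p = 0.0405, and -0.45, 0.0369). The actin difference as a covariate gave 4138 averaged, 2496 in B6g7, 2225 in NOD, and 2077 and 2340 between the strains, with 1 call in B6g7, the same Atp6v1d probe set (-0.31, 0.0422). Using only the arrays of the groups compared gave 976 in B6g7. The median within-array shift was -2.11, and -1.79 with 16 added before log2 or -1.95 without the 4 arrays of replicate number 1. Leaving out 1 array at a time, calls ranged from 2180 to 2728 averaged, 1057 to 1503 in B6g7, 985 to 1552 in NOD, 945 to 1439 between the strains in Tconv and 1027 to 1505 in Treg; calls of the 8 genes were 0 to 0, 0 to 1 and 0 to 0, the median over the 20 probe sets of the difference between the strains' changes, -0.03 as reported, -0.05 to 0.02 and the median shift -2.20 to -2.02. Alternatives beyond those listed with the design, such as the added 16 in the Treg against Tconv comparisons, were chosen after seeing the data. With no detection calls, low levels such as those of Abcb1b in NOD may or may not be above background, and 3 arrays a group limit the precision.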

Other observations

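The unequal probe sets of these genes have counterparts over the array. Of 9010 genes with several probe sets, 226 had at least 1 called lower in NOD in both populations by limma, and in 15 of these (6.64%) every probe set was so called, while in 16 (7.08%) another was called the opposite way, Qprt, Ssbp2, Ccnd3 and Cdk12 among them. Of 210 genes with at least 1 called higher in both, 6 (2.86%) had every probe set so called and 16 (7.62%) another called the opposite way. Ccnd3, a cyclin of G1 phase, was at 1.14 in Tconv and 0.95 in Treg by 1415907_at and at -1.85 and -1.91 by 1438805_at.

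On chromosome 17, 65 measured genes lie between Ubash3a and H2-K1, a class I gene of the MHC. Of these, 3 were called between the strains in Tconv and 3 in Treg by limma, where 3.05% and 3.33% of all genes were called. In both populations 2 were called higher in NOD, where 0.973% of all genes were: Cyp4f16 by 1.12 and 0.85, and Zfp811 by 0.84 and 1.23. Of the 50 measured genes before Ubash3a, 1 was called higher in NOD Tconv, and 2 higher and 1 lower in NOD Treg. Only 1 of the 50 was called the same way in both. Of 123 measured genes from H2-K1 to H2-M3, 1 was higher and 1 lower in NOD Tconv, and 0 were called in Treg, beside the same 3.05% and 3.33% of all genes.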
